A study of Homo sapiens with 6 samples.

Results

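The probes described here read the miR-106b-25 and miR-106a-363 clusters, a pair of human microRNA clusters related to the oncogenic miR-17 cluster (miR-17 to miR-92a). Their members were chosen by name: every human probe for miR-106b, miR-93 and miR-25, and for miR-106a, miR-18b, miR-20b and miR-363, in any strand or precursor form. This gave 14 probes for 7 miRNAs, of the 2997 probes of the array, 7 for the mature strand and 7 for the opposite, or star, strand, with 0 precursor-named probes among them. The samples were HCT-116 cells, an established human colorectal carcinoma line, all of them transiently transfected. In 1 group the cells overexpressed variant 2 of Uc283+a, which has a run of 9 T in its sequence, in another variant 1, with a run of 8 T, and the mock group received the empty vector. Uc283+a is a long noncoding RNA whose locus is an ultraconserved region of the genome, and the study looked for miRNAs that respond to it, with the processing of primary miRNA transcripts as its subject. Each group had 2 arrays. Whether a group's arrays came from different cultures is not in the labels, so p-values here speak of the spread between these samples alone, and that spread may be technical. The time after transfection is not given in the sources used here, and no tested probe names Uc283, so how much transfected RNA the cells held was not analysed here.

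A miRNA cluster is transcribed as 1 long primary transcript, from which the nuclear enzyme Drosha and its partner DGCR8 cut each hairpin, and Dicer then releases the mature strand. The members of a cluster therefore share their transcription, while the cutting of each hairpin can be regulated on its own. The miR-106b-25 cluster lies in an intron of MCM7, a gene of DNA replication driven by E2F factors, and its miR-106b and miR-93 repress the cell cycle inhibitor CDKN1A (p21), while miR-25 represses the pro-apoptotic BCL2L11 (BIM). These miRNAs are often abundant in colorectal and other carcinomas. A miRNA finds its targets mainly through its seed, bases 2 to 8 from the 5′ end, so miRNAs with the same seed share many targets.

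The mature sequences are shown because they split the members into seed groups that cut across the clusters, and because near-identical members may be read by each other's probes. They are RefSeq sequences of the human assembly GRCh38.p14, matched by miRNA name for 13 of the 14 probes (all but hsa-miR-106a*), each written 5′ to 3′ with the seed in capitals. All 13 lie on the minus strand, and the probes' own sequences were not used here. Of the 13, the mature strands and the star strand miR-93* are printed, and the other star strands are left out. Those of the miR-106b-25 cluster, inside MCM7 on chromosome 7, are:
miR-106b (chr7:100094043-100094063): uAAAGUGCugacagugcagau
miR-93 (chr7:100093815-100093837): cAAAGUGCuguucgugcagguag
miR-93* (chr7:100093777-100093798): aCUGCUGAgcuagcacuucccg
miR-25 (chr7:100093571-100093592): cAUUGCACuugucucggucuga
Those of the miR-106a-363 cluster, inside the noncoding host gene MIR106AHG on chromosome X, are:
miR-106a (chrX:134170244-134170266): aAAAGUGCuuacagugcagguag
miR-18b (chrX:134170084-134170106): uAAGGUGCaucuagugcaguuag
miR-20b (chrX:134169850-134169872): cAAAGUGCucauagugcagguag
miR-363 (chrX:134169382-134169403): aAUUGCACgguauccaucugua

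The seed AAAGUGC was shared by 4 mature members, miR-106b and miR-93 of the first cluster and miR-106a and miR-20b of the second, and by miR-17 and miR-20a of the miR-17 cluster. The seed AUUGCAC was shared by miR-25 and miR-363, 1 from each cluster, and AAGGUGC, among the members, was the seed of miR-18b, with miR-18a of the miR-17 cluster as its near copy (1 of 23 bases differing). Members of the first seed group are alike well beyond the seed. Aligned from the 5′ end, miR-106a differed from miR-20b in 3 of 23 bases and from miR-106b in 3 of 21, and miR-93 differed from miR-20b in 3 of 23. The closest neighbour lies outside both clusters: miR-106a and miR-17 differed in 1 of 23 bases (A1C, the miR-106a base first, positions counted from the 5′ end). By contrast, miR-25 and miR-363 differed in 13 of 22 bases. Outside both clusters, miR-25 has closer neighbours: it differed from miR-92a in 4 of 22 bases and from miR-92b in 6 of 22.

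Values are log2 signals that the authors had normalized, with array medians of 6.56 to 6.60. The background level of an array is the 95th percentile of the signals of its 38 random-sequence probes, 6.75 to 7.27, and a probe counts as above background if it passed this level on each of the 6 arrays. By this rule 389 of the 1773 tested probes (human miRNA and ultraconserved-region probes) were above background, and between 452 and 757 exceeded the level on a single array. Over all probes, Pearson r lay between 0.913 and 0.923 for arrays within a group and between 0.907 and 0.928 for arrays from different groups. Array 1 of mock and array 2 of variant 2 stood apart, with SDs of the log2 difference to other arrays of 0.667 to 0.837, where the other pairs lay between 0.463 and 0.576. Of 8 epithelial marker miRNAs, 3 were above background (hsa-miR-200b, hsa-miR-200c and hsa-miR-429). The mean log2 signal of the 8 was 7.12 to 7.65 on the variant arrays and 7.83 to 7.88 on the mock arrays. Of 6 haematopoietic markers 1 was above background (hsa-miR-150), with a mean over the list of 6.43 to 6.68 on the variant arrays and 6.16 to 6.40 on the mock arrays. The part of these marker shifts in the members' differences was not tested. Muscle (1 of 4, hsa-miR-206), liver (hsa-miR-122) and neural (1 of 2, hsa-miR-124) markers overlapped between variants and mock in their mean, as did the 4 fibroblast markers, of which 0 were above background. The liver marker lay at 9.46 to 9.83 on the variant arrays and 9.61 to 9.88 on the mock arrays. The neural mean lay at 8.44 to 8.96 and 8.56 to 8.74. Both were brighter than the epithelial mean. Whether a signal above background comes from the miRNA that the probe names was not tested.

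Of the 14 member probes, 6 were above background: the mature hsa-miR-106b, hsa-miR-93, hsa-miR-25, hsa-miR-106a and hsa-miR-20b, and the star strand hsa-miR-93*. The same 6 stayed above on all 6 arrays when the level was set at the 99th percentile.

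In the miR-106b-25 cluster, hsa-miR-106b gave 9.30 and 8.71 with variant 2, 9.40 and 9.87 with variant 1, and 9.88 and 9.98 in mock. All 4 variant arrays lay below both mock arrays, and both variant 2 arrays below both variant 1 arrays. The upper variant 1 array missed the lower mock array by a small margin only. Since bulk RNA was measured, a smaller share of cells holding this miRNA and less of it per cell cannot be told apart here.

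The probe hsa-miR-93, for the miRNA with the same seed from the middle hairpin, gave 9.36 and 8.81 with variant 2, 9.18 and 9.45 with variant 1, and 9.66 and 9.43 in mock. Both variant 2 arrays were below both mock arrays, while variant 1 overlapped mock. Its opposite strand, hsa-miR-93*, gave 8.71 and 8.20 with variant 2, 9.13 and 9.16 with variant 1, and 8.33 and 9.54 in mock. The mock arrays of the star strand lay 1.21 log2 units apart and spanned all variant arrays but the lowest.

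The third hairpin is read by hsa-miR-25, with 12.65 and 12.09 in variant 2 cells, 12.81 and 12.53 in variant 1 cells, and 12.14 and 12.57 in mock cells. These groups overlapped. The order of its group means was variant 1, then variant 2 and mock, whose means of 12.37 and 12.36 did not differ beyond their spread.

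In the miR-106a-363 cluster, hsa-miR-106a, a miRNA that targets the retinoblastoma gene RB1, gave 10.09 and 9.83 with variant 2, 10.43 and 9.90 with variant 1, and 10.89 and 10.52 in mock. The probe hsa-miR-20b gave 10.27 and 10.08 with variant 2, 10.27 and 10.41 with variant 1, and 11.03 and 10.48 in mock. For both probes every variant array lay below both mock arrays, and for both the gap to the lower mock array was small. The highest variant array and the lowest mock array were 10.43 and 10.52 for hsa-miR-106a, and 10.41 and 10.48 for hsa-miR-20b. The variant 2 and variant 1 arrays overlapped for hsa-miR-106a and barely separated for hsa-miR-20b.

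The remaining mature members of this cluster were not measured above background. The probe hsa-miR-18b exceeded the background level on 1 array, with values of 7.20 and 5.19 for variant 2, 6.96 and 6.37 for variant 1, and 4.81 and 6.59 for mock. The probe hsa-miR-363 exceeded it on 2 arrays, with 3.72 and 6.96 for variant 2, 6.73 and 5.90 for variant 1, and 4.67 and 7.07 for mock. Arrays of the same group differed by up to 3.24 log2 units for hsa-miR-363, so no fold is given for either probe.

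**Figure D1:**
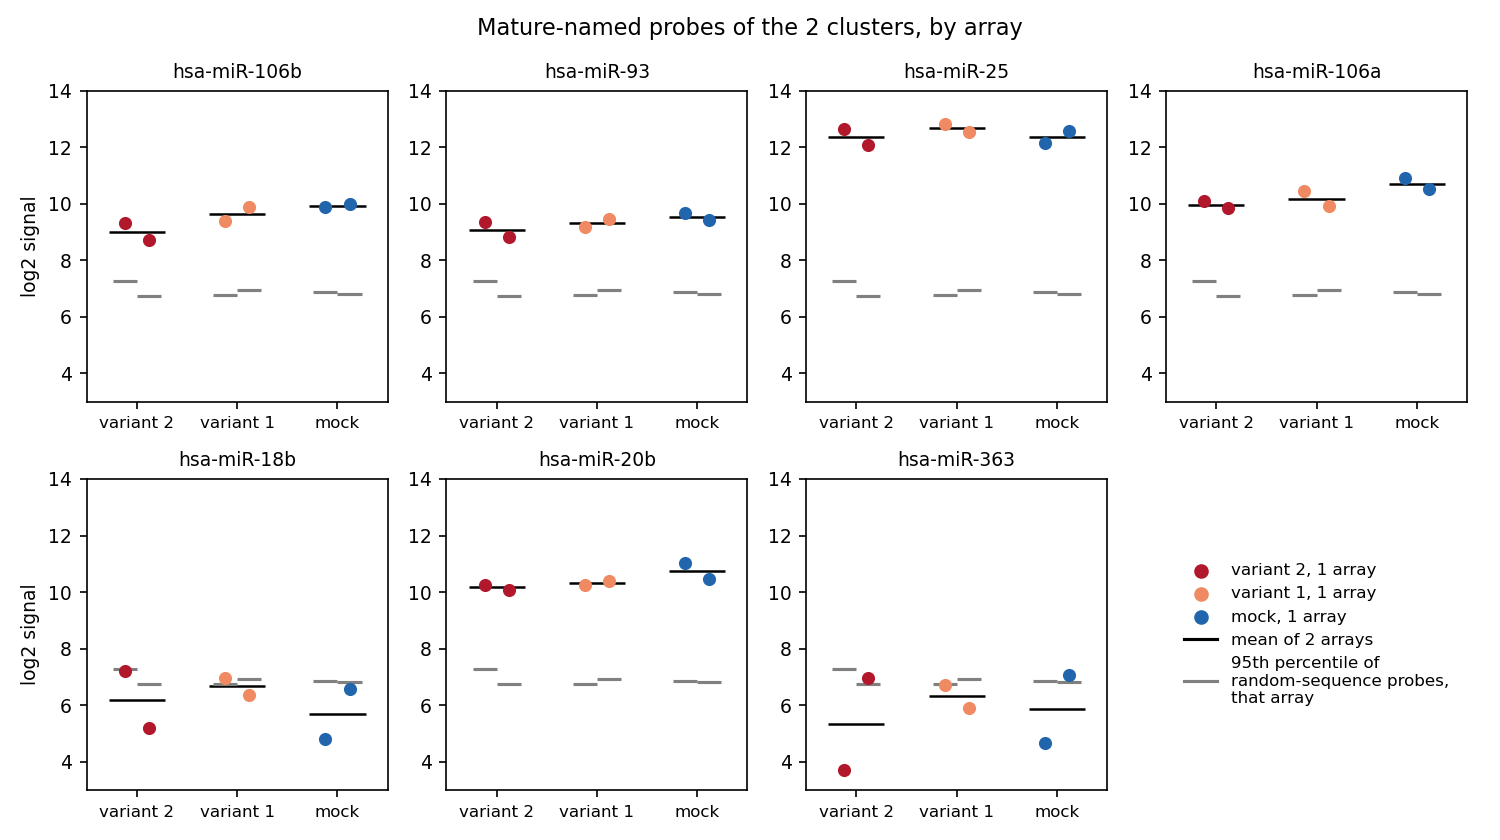
Log2 signal (vertical axis) of the 7 mature-named member probes on each of the 6 arrays, by group, with the mean of 2 arrays as a black line and each array's random-sequence 95th percentile as a grey line. The probes hsa-miR-106b, hsa-miR-93, hsa-miR-25, hsa-miR-106a and hsa-miR-20b lie above the grey lines on all 6 arrays, while hsa-miR-18b and hsa-miR-363 scatter around and below them.

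Among the star strands, which are usually degraded after the mature strand is loaded, hsa-miR-93* alone was above background on all arrays. The probe hsa-miR-363* was above the level on 3 arrays, at 7.21 and 7.60 with variant 2, 6.95 and 6.71 with variant 1, and 6.96 and 6.70 in mock. The star probes of miR-106b, miR-25 and miR-106a exceeded the level on 1 array each, and those of miR-18b and miR-20b on 0 arrays. The probe hsa-miR-106b* gave 6.51 and 6.57 with variant 2, 7.19 and 6.18 with variant 1, and 5.95 and 6.36 in mock. Values of hsa-miR-25* were 6.06 and 6.40 with variant 2, 6.89 and 6.37 with variant 1, and 6.73 and 5.86 in mock. For hsa-miR-106a* the values were 6.85 and 6.22 with variant 2, 6.11 and 5.95 with variant 1, and 5.71 and 6.93 in mock. Variants and mock taken whole overlapped for all 3. The star strand hsa-miR-18b* gave 6.35 and 6.46 with variant 2, 5.55 and 6.60 with variant 1, and 5.64 and 5.41 in mock. The star strand hsa-miR-20b* gave 6.58 and 6.27 with variant 2, 6.37 and 6.53 with variant 1, and 6.71 and 5.57 in mock. These signals give no measured ratio of star to mature strand for these miRNAs.

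**Figure D2:**
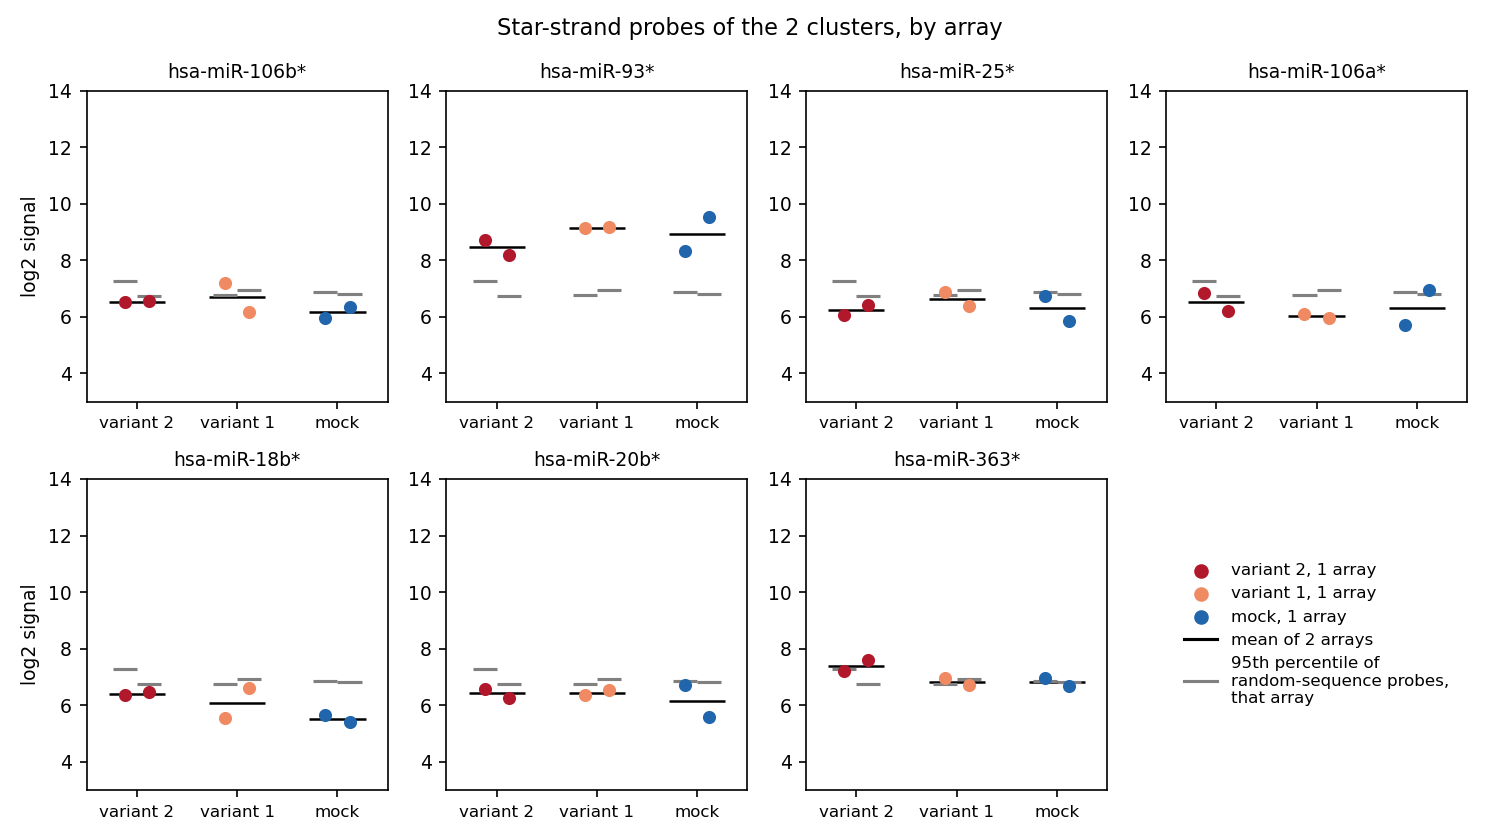
Log2 signal of the 7 star-strand member probes by array and group, on the same vertical scale as for the mature probes, with group means in black and the random-sequence 95th percentile in grey. Only hsa-miR-93* lies above the grey lines on all 6 arrays, and its mock arrays, at 8.33 and 9.54, are wide apart.

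With both variants set against mock, none of the 14 member probes passed the test. In limma the smallest adjusted p among them was 0.975, and 0 of the 1773 tested probes were called (0%), with 82 at an unadjusted p under 0.05. With a trended prior limma called 1 probe, which was no member. Among all tested probes the smallest adjusted p was 0.564. The probe hsa-miR-106a averaged 10.06 ± 0.269 in the variants (SD, n = 4) and 10.70 ± 0.264 in mock (SD, n = 2), a difference of -0.64 (SE 0.344, 95% interval -1.42 to 0.14). For hsa-miR-106b the means were 9.32 ± 0.478 and 9.93 ± 0.0693 in the variants and in mock, a difference of -0.61 (SE 0.35, interval -1.40 to 0.19).

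The probe hsa-miR-20b differed by -0.50 (SE 0.336, interval -1.26 to 0.26), hsa-miR-93 by -0.35 (SE 0.34, interval -1.12 to 0.43) and hsa-miR-93* by -0.13 (interval -1.08 to 0.81). The probe hsa-miR-25 differed by 0.16 (SE 0.35, interval -0.63 to 0.96), the sign opposite to that of the 4 mature probes with the AAAGUGC seed. That sign turned without array 1 of mock, where hsa-miR-25 differed by -0.05. Every one of these intervals includes 0.

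Both arrays that stood apart bear on these values. Without the pair of them the difference was -0.51 for hsa-miR-106b, -0.39 for hsa-miR-106a, -0.18 for hsa-miR-20b, -0.09 for hsa-miR-93 and 0.09 for hsa-miR-25, so those of hsa-miR-20b and hsa-miR-93 shrank the most. The 4 small nucleolar RNA probes of the array, which read U44 and U48 and stayed outside the main tests, differed by -0.31 to -0.74 over all 6 arrays. The part of that shift in the members' differences was not tested.

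Over all 14 probes, 7 were lower and 7 higher in the variants, with a median difference of 0.05 and a range of -0.64 to 0.73, where over all 1773 tested probes 50.6% were lower and the median was -0.01. The arrays of the variants lay wholly below those of mock for 3 members (hsa-miR-106a, hsa-miR-106b and hsa-miR-20b) and for 6.71% of tested probes, and wholly above for 0 members and 6.54% of tested probes. Among the 389 tested probes above background the share wholly below was 7.71%. The 8 members not above background differed by -0.04 to 0.73, with 95% intervals as wide as -2.11 to 2.02 for hsa-miR-363, and these differences of dim signals are no measured folds.

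**Figure D3:**
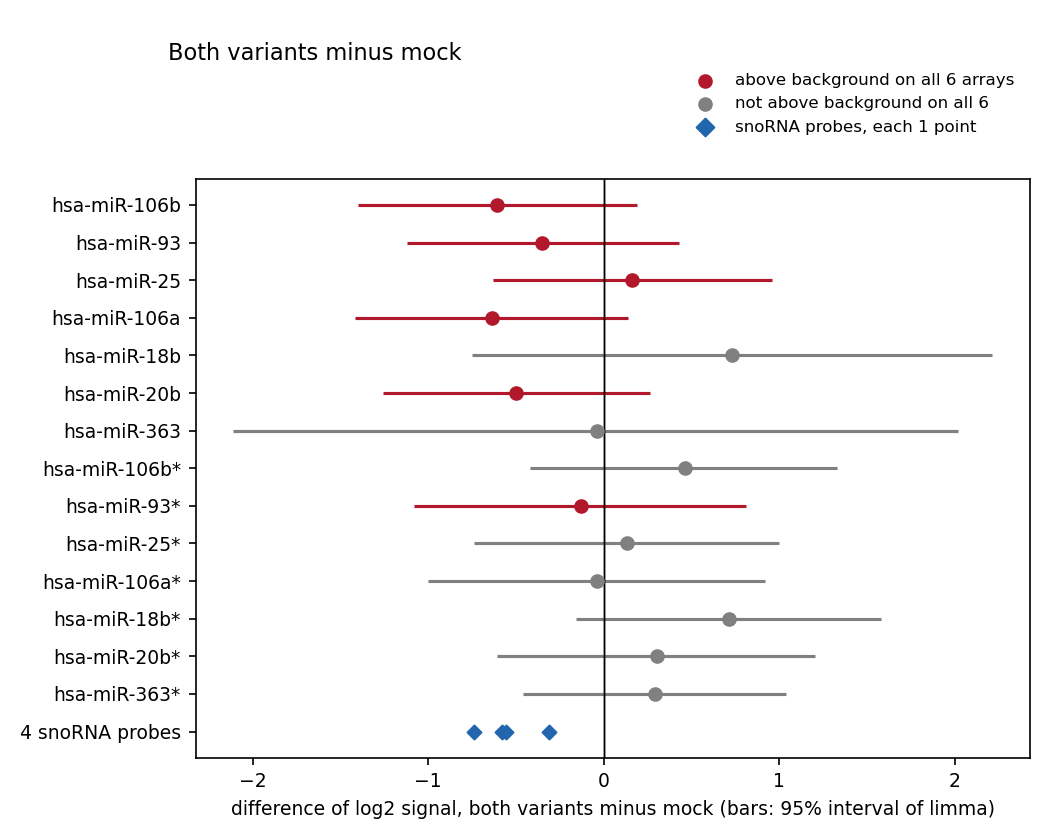
Difference of log2 signal, both variants minus mock (horizontal axis), for the 14 member probes with the 95% interval of limma, in red where the probe was above background on all 6 arrays and in grey otherwise, with the 4 snoRNA probes as diamonds. All 14 intervals include 0. The probes hsa-miR-106a, hsa-miR-106b and hsa-miR-20b sit at -0.64, -0.61 and -0.50, within the range of the snoRNA probes, and hsa-miR-25 sits at 0.16.

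Variant 2 alone gave the largest difference of any member above background. With variant 2, hsa-miR-106b averaged 9.00 ± 0.416 against 9.93 ± 0.0693 in mock (SD, n = 2 each), a difference of -0.93 (SE 0.404, 95% interval -1.84 to -0.01). In limma its unadjusted p was 0.0483, as for 2.54% of tested probes on the lower side, and its adjusted p was 0.938, so it did not pass. Without array 2 of variant 2 the difference was -0.63, and without array 1 of variant 2 it was -1.22. The mouse-named probe of the same miRNA, mmu-miR-106b, also lay wholly below mock with variant 2. Its difference was smaller, at -0.47, with an interval of -1.32 to 0.37 that includes 0 (fit over all probes of the array). Between variant 2 and variant 1 it differed by -0.19, with overlapping arrays. The probe hsa-miR-106a differed by -0.74 (interval -1.65 to 0.16), hsa-miR-20b by -0.58 (interval -1.46 to 0.30), hsa-miR-93 by -0.46 (interval -1.36 to 0.43) and hsa-miR-93* by -0.48 (interval -1.56 to 0.61). That of hsa-miR-20b was -0.31 without array 1 of mock, that of hsa-miR-93 was -0.19 without array 2 of variant 2, and that of hsa-miR-93* ran from -1.08 to 0.13 with 1 or the other mock array left out.

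The probe hsa-miR-25 was level with mock, with a difference of 0.01 (interval -0.90 to 0.93). Limma called 0 of 1773 probes (0%) for variant 2, with 85 at an unadjusted p under 0.05. The variant 2 arrays lay wholly below mock for 4 members (hsa-miR-106a, hsa-miR-106b, hsa-miR-20b and hsa-miR-93), against 17.0% of tested probes and 17.5% of those above background, and wholly above for 3 star probes (hsa-miR-106b*, hsa-miR-18b* and hsa-miR-363*), against 16.4%, none of them above background. The median over the 14 members was -0.03, against 0.01 over all tested probes. The snoRNA probes differed by -0.42 to -0.74.

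With variant 1, hsa-miR-106a, hsa-miR-20b and hsa-miR-106b lay below both mock arrays, and hsa-miR-93 overlapped them. The differences were -0.54 (SE 0.397, 95% interval -1.44 to 0.37) for hsa-miR-106a, -0.42 (interval -1.30 to 0.46) for hsa-miR-20b, -0.29 (interval -1.21 to 0.63) for hsa-miR-106b and -0.23 (interval -1.12 to 0.67) for hsa-miR-93. Without array 1 of variant 1 that of hsa-miR-106b was -0.06 and that of hsa-miR-93 was -0.09, without array 2 of variant 1 that of hsa-miR-106a was -0.27, and without array 1 of mock that of hsa-miR-20b was -0.14. The probes hsa-miR-25 and hsa-miR-93* differed by 0.32 (interval -0.60 to 1.23) and 0.21 (interval -0.88 to 1.30). The smallest adjusted p of a member was 0.96, and limma called 0 of 1773 probes (0%), with 73 at an unadjusted p under 0.05. These 3 were the members wholly below mock, against 17.3% of tested probes and 16.7% of those above background, and 0 members were wholly above, against 16.5%. The median over the 14 was 0.26, against 0.00 over all tested probes. This median was -0.02 without array 1 of mock. The snoRNA probes differed by -0.20 to -0.82. The 2 comparisons share the mock arrays, so their values are not independent of each other.

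Setting variant 2 against variant 1 compares the longer T run with the shorter. The probe hsa-miR-106b differed by -0.63 between them (SE 0.404, interval -1.55 to 0.28), hsa-miR-93* by -0.68 (interval -1.77 to 0.40), hsa-miR-25 by -0.30 (interval -1.22 to 0.62), hsa-miR-93 by -0.24 (interval -1.13 to 0.66), hsa-miR-106a by -0.21 (interval -1.11 to 0.70) and hsa-miR-20b by -0.17 (interval -1.05 to 0.72). Among the 14 members 11 were lower with variant 2, where 49.5% of all tested probes and 53% of those above background were lower. The 11 include hsa-miR-18b, hsa-miR-363, hsa-miR-106b*, hsa-miR-20b* and hsa-miR-25*. These were not above background, so their differences are no measured folds. The differences of hsa-miR-106a and hsa-miR-93 turned to 0.06 without array 1 of variant 1 and to 0.04 without array 2 of variant 2. No member passed, the smallest adjusted p among them being 0.924 in limma, and 0 of 1773 probes were called (0%), although 88 had an unadjusted p under 0.05. Variant 2 lay wholly below variant 1 for 3 members (hsa-miR-106b, hsa-miR-20b and hsa-miR-93*), against 17.9% of tested probes and 22.4% of those above background, and wholly above for 2 star probes below background (hsa-miR-106a* and hsa-miR-363*), against 17.6%. Without array 2 of variant 2 the difference was -0.34 for hsa-miR-106b, -0.43 for hsa-miR-93*, -0.02 for hsa-miR-25 and -0.07 for hsa-miR-20b. The median over the 14 was -0.22, and -0.05 without array 2 of variant 2. No array reads the level of either variant, so the length of the T run and the amount of transfected RNA cannot be told apart.

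**Figure D4:**
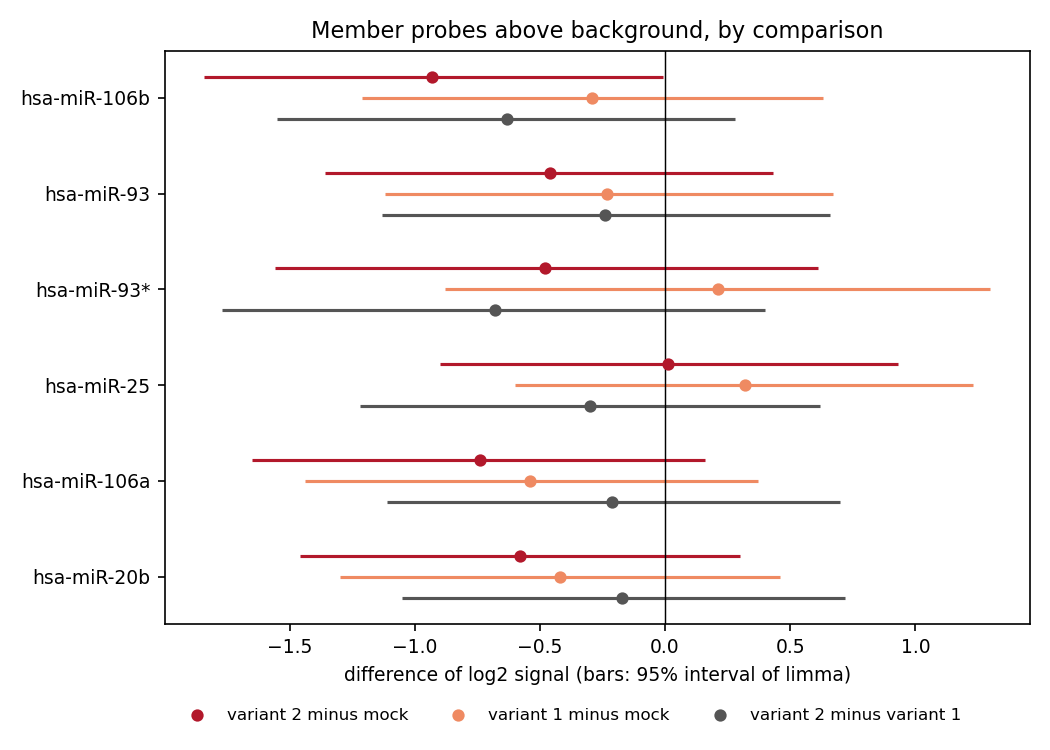
Differences of log2 signal (horizontal axis, points) with 95% intervals of limma (bars) for the 6 member probes above background, for variant 2 minus mock, variant 1 minus mock and variant 2 minus variant 1. Only the interval of hsa-miR-106b for variant 2 minus mock, -1.84 to -0.01, leaves out 0.

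Since the hairpins of a cluster share a primary transcript, the change of 1 member relative to another was also read within each array, for the 4 pairs of mature members above background in the same cluster. This comparison was chosen after the values had been seen. Levels of different probes are not comparable, and only the change of their difference between groups is read. The log2 difference hsa-miR-106b minus hsa-miR-25 was -3.35 and -3.38 with variant 2, -3.40 and -2.66 with variant 1, and -2.26 and -2.59 in mock. All variant arrays lay below both mock arrays, and the mean was -3.20 ± 0.36 in the variants (SD, n = 4) and -2.42 ± 0.238 in mock (SD, n = 2), a change of -0.77.

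An exact two-sided permutation test over the 15 splits of the arrays gave p = 0.0667 for this pair, the smallest value that the design allows, and 0.266 adjusted over the 4 pairs. The difference hsa-miR-93 minus hsa-miR-25 changed by -0.51 (exact p = 0.133, adjusted 0.266), and by -0.18 without array 1 of mock. The pair with a shared seed in that cluster, hsa-miR-106b minus hsa-miR-93, changed by -0.26 (exact p = 0.2, adjusted 0.267), by -0.43 without array 1 of mock and by -0.10 without array 2 of mock. In the other cluster hsa-miR-106a minus hsa-miR-20b changed by -0.14 (exact p = 0.533, adjusted 0.533). With 15 splits this test cannot go below 0.0667, so it could not pass 0.05 whatever the values, and the 4 changes are given as sizes.

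**Figure D5:**
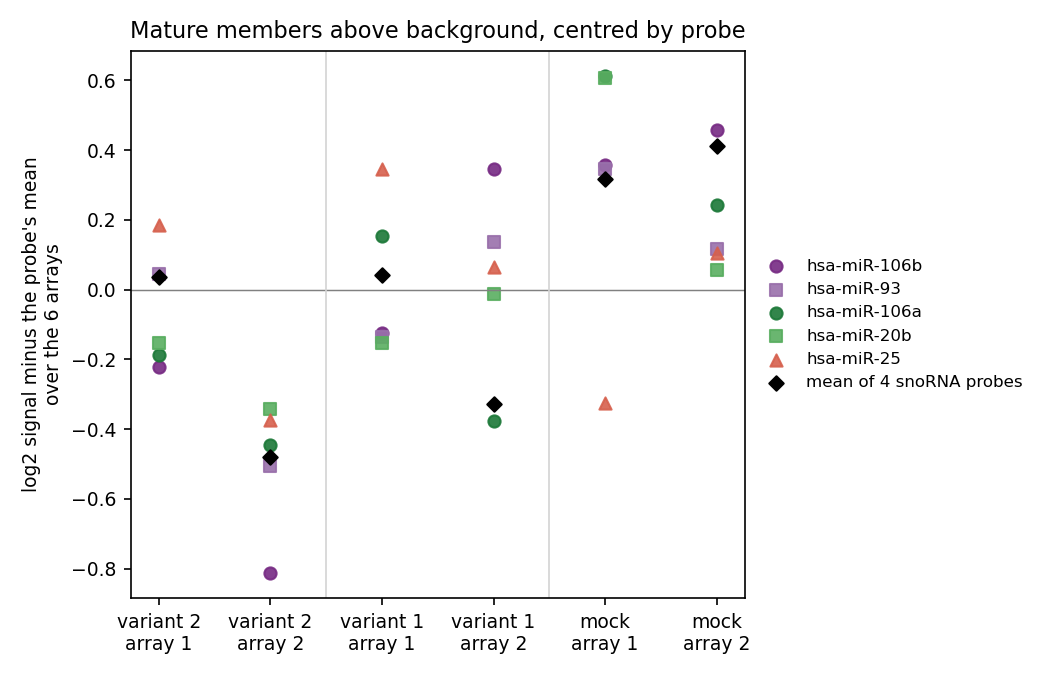
Log2 signal of the 5 mature members above background and the mean of 4 snoRNA probes on each array, each probe centred on its own mean over the 6 arrays (vertical axis). Array 2 of variant 2 is low for all 5 probes and for the snoRNA mean, at -0.48, both mock arrays are high for the snoRNA mean, at 0.32 and 0.41, and hsa-miR-25 alone is below its mean on array 1 of mock.

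Over the 6 arrays, hsa-miR-106b followed hsa-miR-93 at Pearson r = 0.904 and hsa-miR-106a followed hsa-miR-20b at r = 0.824. Across clusters, within the same seed group, hsa-miR-20b and hsa-miR-93 gave r = 0.837 and hsa-miR-106a and hsa-miR-106b r = 0.59. The probe hsa-miR-25 gave r = 0.255 with hsa-miR-106b, 0.147 with hsa-miR-93 and -0.308 with hsa-miR-20b. These are descriptions over 6 points that share the array and its normalization.

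The array also carries mouse-named probes for the same miRNAs, which give readings of the members on the same 6 arrays that the selection did not use. Of 14 such probes, 5 were above background, and they named the same 5 mature miRNAs as the human probes. In a fit over all probes of the array, mmu-miR-106a averaged 8.94 in the variants and 9.51 in mock, a difference of -0.57 (95% interval -1.30 to 0.16), and every variant array lay under both mock arrays. The differences were -0.38 for mmu-miR-106b, also without overlap, -0.41 for mmu-miR-20b, -0.31 for mmu-miR-93 and 0.15 for mmu-miR-25. Of all 1084 mouse-named probes, 64 lay wholly below mock. In this comparison each of the 5 had the sign of its human namesake, and none passed, the smallest adjusted p being 0.961 in limma. Both sets of probes read the same RNA samples on the same 6 arrays, so shared signs are no independent evidence. In the other comparisons some signs parted. For variant 2 against mock mmu-miR-25 differed by -0.20 (human probe 0.01). For variant 1 against mock mmu-miR-20b differed by 0.01 (human probe -0.42). For variant 2 against variant 1 mmu-miR-93 differed by 0.40 (human probe -0.24). Human and mouse-named probes followed each other over the 6 arrays at r = 0.95 for miR-106a, 0.934 for miR-25 and 0.907 for miR-106b, but at 0.563 for miR-93 and 0.257 for miR-20b. For the last, mmu-miR-20b gave 11.40 and 10.33 with variant 2, 11.74 and 11.68 with variant 1, and 11.24 and 12.15 in mock, where mock overlapped variant 1.

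Separating near-identical members is limited by the array. Of 3 mismatch probes for the mature strand of miR-17, which by their names carry 1 or 2 changed bases, all 3 were above background on all 6 arrays, with values of 9.94 to 11.59. The perfect-match probe hsa-miR-17 gave 10.96 and 10.90 with variant 2, 11.04 and 11.10 with variant 1, and 11.39 and 11.29 in mock. Since miR-106a, miR-20b, miR-106b and miR-93 differ from miR-17 in 1 to 4 bases, their probes may read each other's RNA, and the 4 probes are not independent readings. How much of the signal of hsa-miR-106a or hsa-miR-20b comes from RNA of the miR-17 cluster cannot be told here. Likewise, miR-25 differs from miR-92a of that cluster in 4 of 22 bases and from miR-92b in 6 of 22. The probe hsa-miR-92a gave 14.43 to 15.42. Whether hsa-miR-25 also reads miR-92a or miR-92b RNA was not tested. The mismatch probes differed between the variants and mock by -0.25 to -0.46. Because random primers were used for the labelling of total RNA, precursors that hold the mature sequence may add to the signal of a mature probe.

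The paralogous miR-17 cluster, a list chosen with earlier results of these data known, had 11 probes, of which 0 passed in limma. Against mock, 10 of them had a negative and 1 a positive difference in both variants combined, where 50.6% of all tested probes were lower. Their median was -0.34, against -0.01 over all tested probes. Most probes of this cluster were not above background, so this count and median rest mainly on dim signals, which are no measured folds. Its 3 probes above background were hsa-miR-20a, which shares the seed AAAGUGC and differed by -0.81 (interval -1.57 to -0.06, adjusted p 0.975), hsa-miR-17 at -0.34 and hsa-miR-92a, which shares the seed AUUGCAC, at -0.27. Other carriers of that second seed above background were hsa-miR-92b, with a difference of 0.14 (interval -0.68 to 0.96), and hsa-miR-32, with 0.51 (interval -0.44 to 1.46). Signs were therefore mixed among miR-25, miR-92a, miR-92b and miR-32. The 6 miRNAs above background with the first seed all had a negative difference, none of which passed. Their probes may read each other's RNA and are not independent readings. Among all tested probes above background 49.1% were lower, and the 4 snoRNA probes also differed by -0.31 to -0.74. Whether the seed has a part in these signs was not tested.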

How the data were processed

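The deposited table holds log2 signals of 2997 probes on 6 one-colour arrays. Per the labels' protocols, 4 µg of each total RNA was reverse transcribed from random octamers that carried biotin. The submitters' processing notes name limma. The authors corrected or normalized the signals by methods not given in the sources used here. The base of the logarithm is read from the highest value, 15.99, since a 16-bit scanner ends at log2 16. Human miRNA probes (1741) and ultraconserved-region probes (32) were tested in limma 3.58.1 (R 4.3.3), with 1 mean per group over all 6 arrays, 3 residual and 5.71 prior degrees of freedom, two-sided, with Benjamini-Hochberg adjustment over 1773 probes at 0.05. No dim probe was removed. The number of arrays limits the precision. In simulated data for both variants against mock (200 of 1773 probes changed), 12.6% of log2 changes of 1 and 81.4% of log2 changes of 2 were recovered. The simulated noise was independent for each probe and array, with no arrays standing apart, and changes of up to 3 were planted. These shares may therefore be too high for the present data. The members, gene lists and background level were chosen with earlier results of these data known. All members are named. The non-members named are those of the fixed lists, and the 3 probes above background most correlated with the members' mean. Replicate numbers follow deposit order and pair nothing. Alternatives changed the prior, the probes tested, the filter, the normalization, the centring, the array weights and the arrays used. Array star names were matched to RefSeq arms by the older naming.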

Additional observations from a re-analysis of the deposited data

How the results depend on the processing

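The 32 member differences were recomputed under the alternatives. The prior, the probes tested, the filter and the array weights left every difference of means as it was, so they bear on the p-values alone. Of the other values, 19 turned their sign, all of them with fewer arrays. The smallest adjusted p of a member in limma was 0.518, so none was called. Limma called 0 probes in each comparison under all alternatives but 1: with a trended prior it called 1 probe, hsa-miR-1260b, for both variants against mock (adjusted p 0.0469), which is no member. Quantile normalization and centring on the probes above background moved the median of all tested probes by at most 0.011 and 0.0297 and turned no member's sign. Of the members, 6 were above background at the 95th and at the 99th percentile. Without both arrays that stood apart, hsa-miR-93* differed by -0.40 for variant 1 against mock, hsa-miR-93 by 0.04 for variant 2 against variant 1, and the median of the members was -0.02 for variant 1 against mock, against 0.26 with them. Leaving out 1 array at a time, for both variants against mock, gave -0.05 to 0.38 for hsa-miR-25, -0.74 to 0.47 for hsa-miR-93*, -0.65 to 0.57 for hsa-miR-106a*, -0.16 to 1.62 for hsa-miR-18b, -0.27 to 0.86 for hsa-miR-20b*, -0.30 to 0.57 for hsa-miR-25* and -1.24 to 1.16 for hsa-miR-363. In each of these 7 the ends are the fits without 1 of the mock arrays. For variant 2 against mock it gave -0.26 to 0.29 for hsa-miR-25 and -1.08 to 0.13 for hsa-miR-93*, and for variant 1 against mock -0.40 to 0.81 for hsa-miR-93*. For variant 2 against variant 1 it gave -0.47 to 0.06 for hsa-miR-106a and -0.51 to 0.04 for hsa-miR-93, and within arrays hsa-miR-106a minus hsa-miR-20b changed by -0.31 to 0.03. The median of the members ran from -0.19 to 0.27 for both variants, from -0.33 to 0.18 for variant 2, from -0.02 to 0.26 for variant 1 and from -0.42 to -0.05 for variant 2 against variant 1. The fewer arrays are the only change in these fits. A group left with 1 array was taken to vary like the others. No paired analysis was possible because the labels give no replicate numbers. Signal over background limits hsa-miR-18b, hsa-miR-363 and 6 of the 7 star probes, for which no fold can be read.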

Other observations

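The miR-106a-363 cluster also holds second copies of miR-19b and miR-92a, whose mature strands are the same from both genomic copies and cannot be assigned to a cluster. Their star strands differ by copy. The probe hsa-miR-92a-2* gave 6.05 and 4.77 with variant 2, 7.15 and 6.64 with variant 1, and 5.32 and 5.39 in mock. The probe hsa-miR-19b-2* gave 4.79 and 5.79 with variant 2, 6.60 and 5.92 with variant 1, and 6.40 and 6.72 in mock. Neither was above background, so no fold is given.

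The human miRNA probes outside the clusters whose pattern over the 6 arrays was most like the mean of the 6 member probes above background were hsa-let-7c (Pearson r = 0.998), hsa-let-7d (r = 0.967) and hsa-miR-20a (r = 0.956), the highest among 381 probes above background. Their differences between both variants and mock were -0.59, -0.36 and -0.81. The mean profile of the members was lowest on array 2 of variant 2, at -0.52 from its own mean, and highest on array 2 of mock, at 0.28. The points are 6 arrays that share their normalization, so these values are a description.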
